A study of Mus musculus with 24 samples.

Results

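The 9 genes described here encode proteins of platelets, most of which are stored in granules or built into the cytoskeleton. They were taken by name: Tubb1, Pf4, Ppbp, Thbs1, Mmrn1, Vwf, Selp, F13a1 and Tmem40, out of 24325 gene symbols on the array, of which 13051 were tested. Every one of the 9 was tested, well above background on all 24 arrays and saturated on none. RNA came from whole blood of male 129S/J mice, drawn by cardiac puncture into an RNA stabiliser 24 h after X-ray or sham exposure, and globin RNA was then removed. Wild-type mice received 0 Gy (n = 5), 6 Gy (n = 5) or 8.8 Gy (n = 4). Parp1-/- mice, which lack a nuclear enzyme that senses DNA breaks, received 0 Gy (n = 5) or 6 Gy (n = 5). The doses of 8.8 Gy in wild-type and 6 Gy in Parp1-/- mice were each genotype's LD50/30, a standard measure of lethal dose. Each array held 1 mouse, and the labels give no age and do not say which part of Parp1 the null allele lacks.

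Platelets have no nucleus and carry RNA made in the megakaryocyte, the large bone marrow cell that sheds them. Their alpha granules hold chemokines, adhesive proteins and clotting factors that are released when a vessel is injured, and a ring of microtubules under the membrane keeps the resting platelet disc-shaped. Transcription factors of the GATA, ETS, RUNX and NF-E2 families switch on the megakaryocyte genes that encode these parts. Several of the proteins are also made elsewhere: endothelial cells make von Willebrand factor, P-selectin and multimerin 1, and monocytes make thrombospondin 1 and the factor XIII A subunit.

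The RefSeq table of promoters (build GRCm38.p6) held 9 starts of 7 of these genes, and none for Thbs1 or Vwf was used here. The 250 bases before each start were searched on both strands for exact letters. The GATA patterns were AGATAA and TGATAA, the ETS patterns were CGGAAG and AGGAAG, the RUNX pattern was TGTGGT, and that of NF-E2 was GCTGAGTCA. AGGAAG stood in 6 of the 9 promoters, belonging to Tubb1, Pf4, Selp, F13a1 and Tmem40, and in 29.5% of the 32851 promoters of the table. TGATAA stood in 1 of the 9 (Mmrn1) and in 7.94% of the table, GCTGAGTCA in 1 (Tmem40) and in 0.39%, and TGTGGT in 1 (Tmem40, at its other start) and in 14.0%, where its match overlapped one of AGGAAG. Matches to AGATAA and CGGAAG were found in none of the 9, against 9.99% and 13.6% of the table, and the Ppbp promoter matched no pattern. Such matches describe letters and do not show binding. Below are the promoters of Tubb1, shown because it was called at both LD50/30 doses, of Mmrn1 and Tmem40, which hold the GATA and NF-E2 patterns, and of Pf4 and Ppbp, 2 chemokine genes on the same strand of chromosome 5 with 2371 bases between them. Capitals mark the matched letters, and each sequence runs 5′ to 3′ on the gene's strand.
Tubb1 (chr2:174450345-174450594, + strand): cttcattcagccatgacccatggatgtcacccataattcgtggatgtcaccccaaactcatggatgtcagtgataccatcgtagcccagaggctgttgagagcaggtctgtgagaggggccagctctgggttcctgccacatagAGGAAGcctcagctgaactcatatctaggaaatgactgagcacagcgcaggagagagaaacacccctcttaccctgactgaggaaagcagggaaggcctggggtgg
Mmrn1 (chr6:60944067-60944316, + strand): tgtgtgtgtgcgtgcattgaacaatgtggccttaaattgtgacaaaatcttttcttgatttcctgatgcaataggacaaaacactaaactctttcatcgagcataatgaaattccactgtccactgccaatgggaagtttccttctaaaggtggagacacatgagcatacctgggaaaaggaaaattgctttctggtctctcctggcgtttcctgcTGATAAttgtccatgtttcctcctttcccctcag
Tmem40 (chr6:115762467-115762716, - strand): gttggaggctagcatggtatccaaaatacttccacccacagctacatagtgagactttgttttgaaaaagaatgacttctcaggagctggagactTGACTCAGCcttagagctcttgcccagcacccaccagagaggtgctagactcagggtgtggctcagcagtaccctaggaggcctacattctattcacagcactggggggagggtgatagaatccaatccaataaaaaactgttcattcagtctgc
Pf4 (chr5:90772185-90772434, + strand): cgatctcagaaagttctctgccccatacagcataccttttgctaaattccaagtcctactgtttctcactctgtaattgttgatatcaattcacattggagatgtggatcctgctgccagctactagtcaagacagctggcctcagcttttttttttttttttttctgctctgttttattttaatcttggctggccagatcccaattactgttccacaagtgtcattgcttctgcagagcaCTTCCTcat
Ppbp (chr5:90768268-90768517, + strand): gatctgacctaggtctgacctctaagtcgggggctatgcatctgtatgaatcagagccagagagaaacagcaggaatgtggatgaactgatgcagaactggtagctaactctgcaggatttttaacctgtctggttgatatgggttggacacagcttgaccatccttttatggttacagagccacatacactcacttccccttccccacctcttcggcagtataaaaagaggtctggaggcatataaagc

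Levels are log2 signals relative to the 75th percentile of the array they come from, so 0 is the brightness that 75% of spots stay under. They compare arrays for 1 gene and not genes with each other. Between 36.4% and 57.5% of probes were well above background per array. There were 10 slides and 4 scan days. In wild type, day 4 held the unirradiated arrays and day 3 the irradiated ones, so that scan day and irradiation cannot be told apart there. Parp1 was not well above background on 9 of the 10 Parp1-/- arrays, nor on 3 wild-type arrays, those of 6 Gy replicates 1 and 2 and of 8.8 Gy replicate 4. It was well above background on the library labelled Parp1-/- 6 Gy replicate 1 (log2 level -1.67), while the library labelled wild-type 8.8 Gy replicate 4 was at -3.95, below all other wild-type arrays. On the latter, the Parp1 spot lay in a dim area. It deviated from its level on other arrays by -2.07, and the 62 bright spots around it by a median of -2.28. The library labelled wild-type 8.8 Gy replicate 2 differed from the one labelled Parp1-/- 6 Gy replicate 1 by an SD of only 0.167 (log2) over 10767 probes, whereas the 276 possible array pairs had a median SD of 0.901. Next closest were Parp1-/- 0 Gy replicates 4 and 5, with an SD of 0.262, and the pair after them had 0.431. Hepatocyte transcripts came and went within every group, albumin for instance ranging from -4.53 to 9.20 in wild-type 0 Gy arrays.

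**Figure D1:**
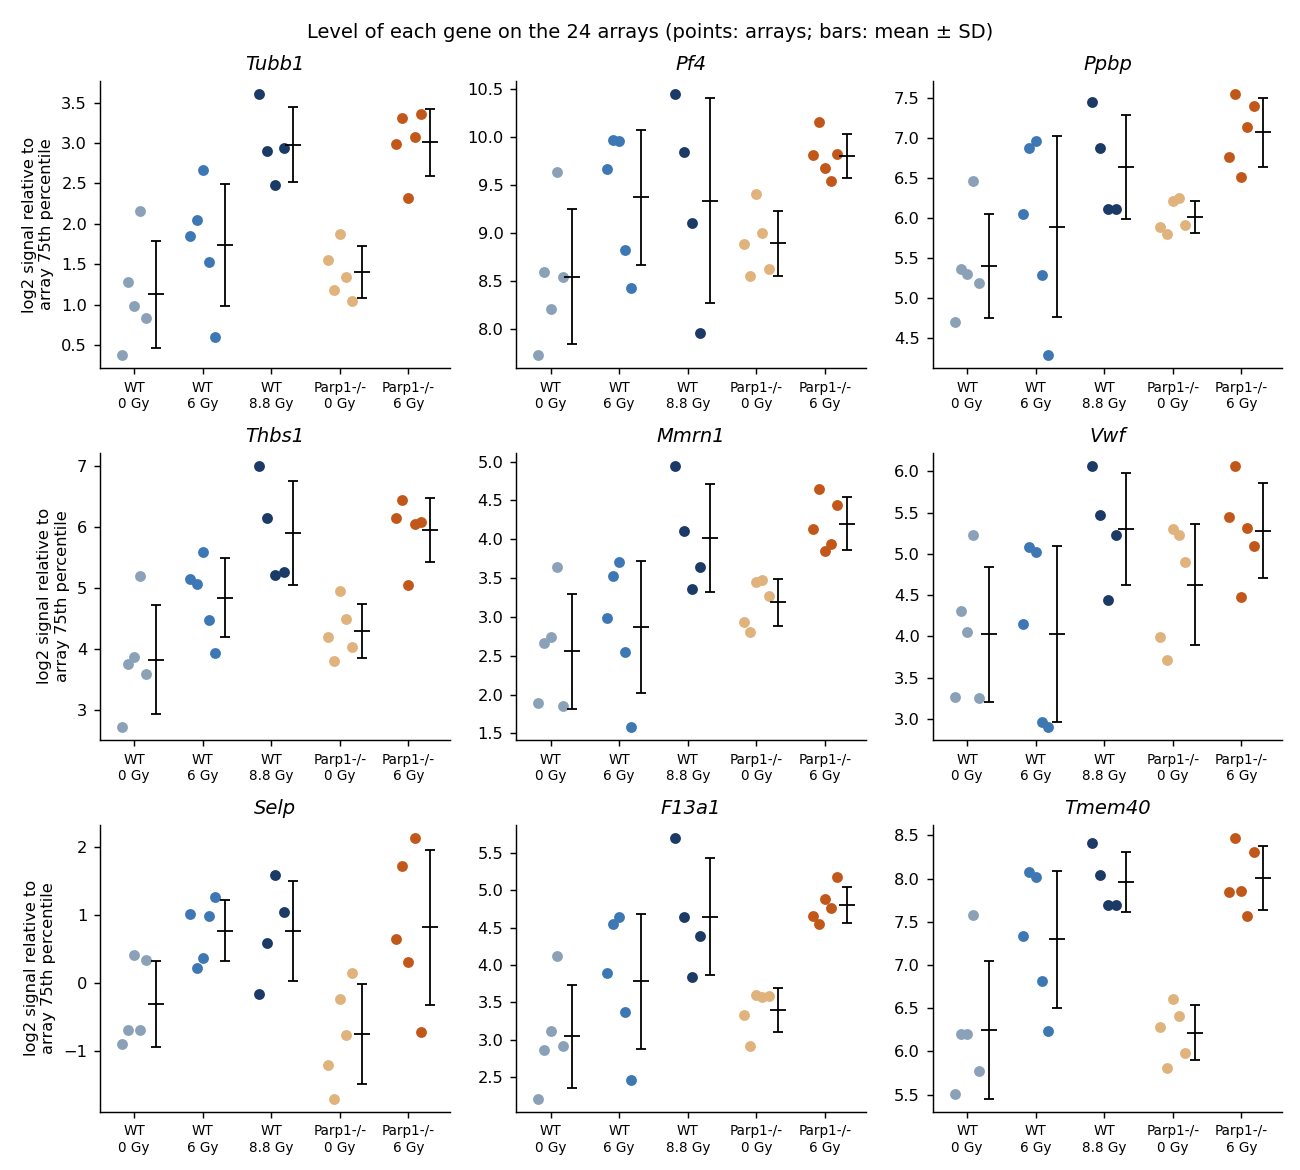
Level of each of the 9 genes on the 24 arrays, as log2 signal relative to the array's 75th percentile, by genotype and dose (points are arrays in replicate order, the bar beside them is the mean ± SD). Wild-type 8.8 Gy and Parp1-/- 6 Gy arrays lie above the 0 Gy arrays of their genotype for most genes, without overlap for Tubb1, Thbs1 and Tmem40, and wild-type 6 Gy arrays spread over both ranges.

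Tubb1 encodes beta-1 tubulin, the tubulin of the microtubule ring, which megakaryocytes and platelets make almost alone among cells. Its probe (mm9, chr2:174283277-174283336, + strand) is shown because all Tubb1 values rest on it.
Tubb1 probe: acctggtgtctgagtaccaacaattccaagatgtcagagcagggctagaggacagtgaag
The log2 level of Tubb1 was 0.38, 1.29, 0.99, 2.16 and 0.84 on the wild-type 0 Gy arrays, replicates 1 to 5. At 6 Gy the wild-type values were 1.85, 2.05, 2.67, 1.52 and 0.60, and at 8.8 Gy they were 3.61, 2.90, 2.48 and 2.93. All 4 arrays at 8.8 Gy therefore lay above all 5 at 0 Gy, and the 6 Gy arrays overlapped both groups. In Parp1-/- mice, Tubb1 was at 1.56, 1.19, 1.87, 1.34 and 1.05 without irradiation and at 2.98, 3.31, 2.32, 3.08 and 3.36 after 6 Gy, 2 ranges that did not overlap. The rise was 1.85 ± 0.365 (log2 difference ± SE, 3.61-fold) at 8.8 Gy in wild type (limma adjusted p = 0.00204) and 1.61 ± 0.344 (3.05-fold) at 6 Gy in Parp1-/- mice (adjusted p = 0.00193). At 6 Gy in wild type the difference was 0.61 (95% interval -0.10 to 1.32, adjusted p = 0.19).

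Pf4 (platelet factor 4, CXCL4) and Ppbp (pro-platelet basic protein, the precursor of the neutrophil attractant CXCL7) are the 2 abundant alpha-granule chemokines. The log2 level of Pf4 was 7.73, 8.60, 8.22, 9.64 and 8.55 in wild-type 0 Gy arrays, 9.67, 9.98, 9.96, 8.83 and 8.43 at 6 Gy, and 10.45, 9.84, 9.11 and 7.96 at 8.8 Gy. In Parp1-/- mice it was 8.88, 8.55, 9.41, 9.0 and 8.63 at 0 Gy and 9.82, 10.16, 9.68, 9.55 and 9.83 at 6 Gy. The Parp1-/- groups did not overlap, but the difference of 0.91 ± 0.397 did not pass the test over all genes (adjusted p = 0.102). Nor did 0.83 ± 0.397 at 6 Gy in wild type (adjusted p = 0.125) or 0.79 ± 0.421 at 8.8 Gy (adjusted p = 0.208).
The lowest Pf4 value at 8.8 Gy, on replicate 4, lay in a dim area of that array. The 52 bright spots around that Pf4 spot deviated from their levels on other arrays by a median of -1.19 (log2), and those around the Parp1 spot by -2.28. Around the spots of the 8 genes printed once per array, the same measure ran from -0.46 to 0.42 in the other 191 gene and array combinations. Of the 10 Selp spots, 2 had dim surroundings on that array, at -1.79 and -0.714, and the same 2 on wild-type 6 Gy replicate 1, at -0.837 and -1.02. Without that array, the wild-type 8.8 Gy difference of Pf4 was 1.25 with an adjusted p of 0.0431. The part of the dim area in the Pf4 value was not tested.
Ppbp ranged from 4.70 to 6.46 in wild-type 0 Gy arrays (median 5.30), from 4.29 to 6.96 at 6 Gy (median 6.05) and from 6.12 to 7.45 at 8.8 Gy (median 6.50). Parp1-/- arrays ranged from 5.81 to 6.25 at 0 Gy and from 6.51 to 7.55 at 6 Gy, with no overlap. The differences of 1.24 ± 0.44 at 8.8 Gy (adjusted p = 0.0577) and of 1.06 ± 0.415 in Parp1-/- mice (adjusted p = 0.069) did not pass, and the one at 6 Gy in wild type was 0.49 ± 0.415 (adjusted p = 0.395).

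Of the adhesive granule proteins, Thbs1 had the largest rise at 8.8 Gy. Thrombospondin 1, its product, is a large matrix protein of the alpha granule that binds other released proteins and activates latent TGF-beta. The log2 level of Thbs1 was 2.73, 3.75, 3.87, 5.20 and 3.59 on wild-type 0 Gy arrays, 5.14, 5.06, 5.59, 4.48 and 3.94 at 6 Gy, and 7.0, 6.14, 5.21 and 5.26 at 8.8 Gy. The highest 0 Gy array stayed just below the lowest at 8.8 Gy. Parp1-/- arrays were at 4.2, 3.80, 4.95, 4.49 and 4.03 without irradiation and at 6.15, 6.44, 5.05, 6.04 and 6.08 after 6 Gy, again without overlap. Thbs1 rose by 2.08 ± 0.44 at 8.8 Gy (log2, 4.21-fold, adjusted p = 0.00335) and by 1.66 ± 0.414 in Parp1-/- mice (3.15-fold, adjusted p = 0.00601). The difference of 1.02 ± 0.414 at 6 Gy in wild type did not pass (adjusted p = 0.0715).

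Mmrn1 encodes multimerin 1, a large protein that carries factor V in the alpha granule. It ranged from 1.85 to 3.64 in wild-type 0 Gy arrays (median 2.67), from 1.59 to 3.71 at 6 Gy (median 2.98) and from 3.37 to 4.94 at 8.8 Gy (median 3.88). At 8.8 Gy it was 1.46 ± 0.404 higher than at 0 Gy (2.75-fold, adjusted p = 0.0168), with 3 of 4 arrays above all controls. The Parp1-/- ranges were 2.80 to 3.48 at 0 Gy and 3.85 to 4.65 at 6 Gy. Although these did not overlap, the difference of 1.01 ± 0.381 had an adjusted p of 0.0587. A further probe for Mmrn1 was not well above background on any array.

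Vwf encodes von Willebrand factor, which tethers platelets to exposed collagen through the glycoprotein Ib complex and carries factor VIII. It varied the most within groups of all 9 genes, with a pooled SD of 0.798 against a median of 0.533 over all genes tested, and it was not called in any radiation comparison. Vwf ranged from 3.26 to 5.23 in wild-type 0 Gy arrays, from 2.90 to 5.09 at 6 Gy and from 4.44 to 6.07 at 8.8 Gy. The difference was 0.00 ± 0.479 at 6 Gy (95% interval -0.99 to 0.99) and 1.28 ± 0.508 at 8.8 Gy (adjusted p = 0.0888). Among Parp1-/- arrays Vwf ranged from 3.71 to 5.31 at 0 Gy and from 4.48 to 6.07 at 6 Gy, a difference of 0.65 ± 0.479 (adjusted p = 0.339).

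Selp encodes P-selectin, a receptor of the alpha-granule membrane that moves to the surface on activation and binds leukocytes through PSGL-1. Its probe was printed 10 times per array, and the SD between these spots was 0.0486 to 0.617 with a median of 0.11 (log2). The level of Selp was -0.90, -0.69, 0.41, -0.70 and 0.34 on wild-type 0 Gy arrays, 1.01, 0.21, 0.37, 0.98 and 1.26 at 6 Gy, and -0.16, 0.59, 1.59 and 1.04 at 8.8 Gy. In Parp1-/- mice it was -1.21, -1.70, -0.23, -0.77 and 0.15 at 0 Gy and 0.64, 1.71, 0.30, 2.13 and -0.72 at 6 Gy. Irradiated and sham arrays overlapped in each of the 3 comparisons, and Parp1-/- replicate 5 at 6 Gy lay within the sham range. Selp rose by 1.57 ± 0.466 in Parp1-/- mice (2.96-fold, adjusted p = 0.0177), a call lost without the array of 0 Gy replicate 2 (adjusted p = 0.0528), 6 Gy replicate 2 (0.0581) or 6 Gy replicate 4 (0.063). In wild type the differences were 1.07 ± 0.466 at 6 Gy (adjusted p = 0.0884) and 1.07 ± 0.494 at 8.8 Gy (adjusted p = 0.143).

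F13a1 encodes the A subunit of factor XIII, the transglutaminase that cross-links fibrin, and Tmem40 encodes a transmembrane protein of platelets whose function is little known. F13a1 had 2 probes: the bright one used here (mm9, chr13:36959214-36959273, - strand) and a dim one elsewhere in the gene (chr13:37063829-37063888, - strand), shown because it reads the same gene at another place.
F13a1 second probe: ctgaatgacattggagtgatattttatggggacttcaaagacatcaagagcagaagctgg
The dim probe was well above background on 3 of 4 arrays at 8.8 Gy in wild type and on 4 of 5 arrays of Parp1-/- mice at 6 Gy. It was so on 1 wild-type array at 6 Gy and on 0 of the 10 arrays at 0 Gy.
On the bright probe, the level of F13a1 was 2.21, 2.86, 3.11, 4.12 and 2.91 in wild-type 0 Gy arrays, 3.89, 4.55, 4.64, 3.37 and 2.46 at 6 Gy, and 5.71, 4.64, 3.84 and 4.39 at 8.8 Gy. In Parp1-/- mice it was 3.33, 2.91, 3.60, 3.58 and 3.59 at 0 Gy and 4.66, 4.54, 4.89, 4.76 and 5.17 at 6 Gy. The Parp1-/- groups stood clear of each other, whereas 1 control array exceeded 1 array at 8.8 Gy. F13a1 rose by 1.60 ± 0.41 at 8.8 Gy (3.04-fold, adjusted p = 0.0107) and by 1.40 ± 0.387 in Parp1-/- mice (2.65-fold, adjusted p = 0.0112), and the wild-type 6 Gy difference was 0.74 ± 0.387 (adjusted p = 0.157).
Tmem40 was at 5.51, 6.20, 6.20, 7.58 and 5.77 on wild-type 0 Gy arrays, 7.34, 8.08, 8.02, 6.81 and 6.24 at 6 Gy, and 8.41, 8.04, 7.69 and 7.69 at 8.8 Gy. Parp1-/- arrays were at 6.28, 5.81, 6.60, 6.42 and 5.99 at 0 Gy and at 7.84, 8.47, 7.85, 7.56 and 8.31 at 6 Gy. It is the only one of the 9 called in all 3 radiation comparisons. The rise was 1.05 ± 0.357 at 6 Gy in wild type (2.06-fold, adjusted p = 0.0347), 1.71 ± 0.379 at 8.8 Gy (3.26-fold, adjusted p = 0.00448) and 1.79 ± 0.357 in Parp1-/- mice (3.46-fold, adjusted p = 0.00118). An overlapping second probe of Tmem40 gave group means of 6.19, 7.21, 7.94, 6.17 and 7.93, in the order wild type 0, 6 and 8.8 Gy and Parp1-/- 0 and 6 Gy, against 6.25, 7.30, 7.96, 6.22 and 8.01 for the probe used.

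Counted together, 1 of the 9 genes was higher after 6 Gy in wild type by limma, 5 after 8.8 Gy and 5 in Parp1-/- mice after 6 Gy, and 0 were lower. Called in either direction were 26.4%, 16.1% and 22.8% of the 13051 genes tested, called higher were 15.5%, 7.04% and 12.3%, and called lower were 10.9%, 9.04% and 10.5%. The median difference over the 9 genes was 0.74, 1.46 and 1.40 in the same order, against 0.04, 0.03 and -0.07 over all genes tested. The calls at 8.8 Gy were Tubb1, Thbs1, Mmrn1, F13a1 and Tmem40, and those in Parp1-/- mice were Tubb1, Thbs1, Selp, F13a1 and Tmem40. Groups did not overlap for 0, 3 and 7 of the 9 genes, where 9%, 6.7% and 9.34% of all genes stood clear in the upward direction. In a blood sample, fewer cells of a type and less RNA per cell cannot be told apart. The T cell list, with 8 of 8 genes tested, held 7, 8 and 8 genes called lower, and the B cell list 5, 5 and 5 of 7. Thy1, Cd5 and Cd3g of the T cells were lower in all 3 comparisons (log2 differences from -3.78 to -1.43). Lck was lower at 6 Gy in wild type (-1.86), and Cd3d at 8.8 Gy (-2.27) and in Parp1-/- mice (-1.75). Values are given for at most 4 genes per list and comparison, and Lck was also among the 8 called lower at 8.8 Gy and in Parp1-/- mice. Cd79a, Cd79b and Fcmr of the B cells were lower in all 3 (from -3.45 to -1.79). The mean level of the T cell list ran from 3.24 to 4.01 in wild-type 0 Gy arrays, 1.64 to 2.45 at 6 Gy and 0.74 to 1.92 at 8.8 Gy, and in Parp1-/- arrays from 2.79 to 3.99 and from 1.06 to 2.03. The part of these losses in the rise of the 9 genes was not tested.

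**Figure D2:**
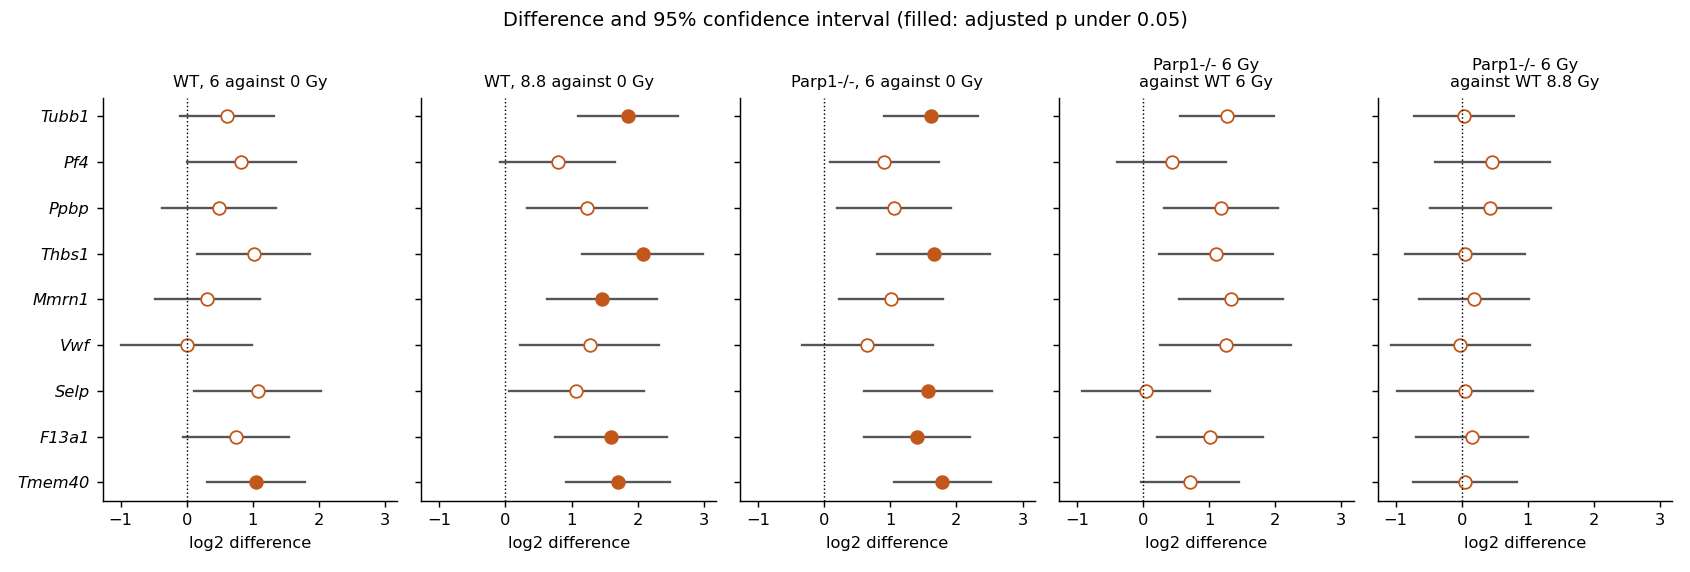
Log2 difference of each gene in 5 comparisons, with its 95% confidence interval from limma and filled points where the adjusted p was under 0.05. Of 9 genes, 1, 5 and 5 were called in the 3 radiation comparisons, and 0 between Parp1-/- and wild-type mice, where all points lie above 0 at 6 Gy and lie between -0.02 and 0.47 at the LD50/30 doses. With arrays centred on their medians, the wild-type 6 Gy differences turned negative for 5 genes.

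The 6 Gy result in wild type hung on the scaling and on single arrays. Centring each array on its median moved the median of all genes in that comparison from 0.04 to -0.74, and the median of the 9 genes to -0.04, with 4 of 9 above 0 and 0 called beside 46.8% of all genes. Tmem40 was called in 17 of 24 refits that each left out 1 array, and 0 of the 9 genes were called without wild-type 0 Gy replicate 1, 2, 3 or 5 or wild-type 6 Gy replicate 1, 2 or 3, refits that called 17.4% to 22.6% of all genes. By contrast, 4 of the 9 were called without wild-type 6 Gy replicate 5 (30.1% of all genes) and 3 without wild-type 0 Gy replicate 4 (25.0%). At 8.8 Gy, 3 genes were called without replicate 1 (12.5% of all genes), with Mmrn1 (adjusted p = 0.0735) and F13a1 (0.0507) lost, and normexp background correction left 0 called beside 37.4% of all genes, with a median of 0.57 and Pf4 at -0.52. Parp1-/- 6 Gy replicate 5 shared a slide with 0 Gy replicates 1 and 2, and it exceeded their mean in all 9 genes, by 0.73 to 2.26 with a median of 1.57. In the fixed-block fits that follow, the Parp1-/- radiation difference rests on these arrays alone and repeats that median. The wild-type differences reach 0 Gy only through Parp1-/- 6 Gy replicate 4. No other irradiated array shared a slide or scan day with wild-type 0 Gy arrays. When slides entered as a fixed block, 0 of the 9 genes were called in any comparison, and of all genes 0%, 0% and 0.406% were called in the 3 radiation comparisons, while the medians of the 9 were 1.12, 1.90 and 1.57. With scan days as a fixed block 0 of the 9 were called too, beside 0.115%, 0.176% and 0.429% of all genes, with medians of 0.68, 1.43 and 1.57.

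Before irradiation, Parp1-/- against wild-type mice gave 0 calls among the 9 by limma (0.682% of all genes called) and 0 with an unadjusted p under 0.05, with differences from -0.44 for Selp to 0.63 for Mmrn1 and a median of 0.36. No slide or scan day held arrays of both these groups, so genotype and batch cannot be told apart there. This also bears on the difference in response given below, which uses both groups. At 6 Gy, 0 of the 9 genes were called by limma (0.851% of all genes) and 6 had an unadjusted p under 0.05, while all 9 differences were above 0, with a median of 1.11. Mmrn1 was 1.33 ± 0.381 higher in Parp1-/- mice (95% interval 0.54 to 2.12, adjusted p = 0.0684), with 5 of 5 arrays above all wild-type arrays (2.93% of all genes stood clear in this way). Tubb1 was 1.27 ± 0.344 higher (adjusted p = 0.0603), with 4 of 5 arrays above, whereas Selp differed by 0.05 (interval -0.91 to 1.01). Among the arrays of scan day 3, 3 against 5 and all part of the comparison above, all 9 genes were higher, by a median of 1.04. On slide 4, 1 array against 2, all 9 were higher with a median of 2.23. The wild-type arrays there, replicates 4 and 5, were the lowest of their group by the mean of the 8 genes other than Selp. They deviated from the group mean by -0.502 and -1.17. On slide 2, 1 against 1, 6 of 9 were higher with a median of 0.36, while Tmem40 (-0.24), Pf4 (-0.16) and Ppbp (-0.10) were lower. Slide 2 and scan day 3 include the library labelled Parp1-/- 6 Gy replicate 1, on which Parp1 was well above background. Of the 9 genes, 1 was called without wild-type 8.8 Gy replicate 1 or Parp1-/- 0 Gy replicate 3, which lie outside the comparison and enter through the spread. Centring on array medians gave calls for 8 of the 9 here and for 29.2% of all genes, with the median of all genes at 0.59 and that of the 9 at 1.75.
The response itself, the 6 Gy change in Parp1-/- minus that in wild type, was above 0 for all 9 genes with a median of 0.65, and 0 were called by limma (6.08% of all genes), 0 of them with an unadjusted p under 0.05. The largest was Tubb1 at 1.0 (interval -0.01 to 2.01, adjusted p = 0.199). Under this scaling, the 6 Gy calls in Parp1-/- mice that were absent in wild type therefore do not show a difference in response. With arrays centred on their medians, 6 of the 9 were called beside 30.2% of all genes, the median of the 9 being 1.47 and that of all genes 0.90. Against the wild-type response to 8.8 Gy, the median was -0.20 with 0 called (0% of all genes), and 1.12 with 2 called under normexp correction, where 48.1% of all genes were called.

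At the LD50/30 doses, Parp1-/- 6 Gy against wild-type 8.8 Gy gave differences from -0.02 for Vwf to 0.47 for Pf4, with a median of 0.05 and 0 calls by limma (0% of all genes), 0 of them with an unadjusted p under 0.05. The intervals still allow sizeable gaps, for Tubb1 from -0.73 to 0.78, for Thbs1 from -0.86 to 0.96 and for Vwf from -1.07 to 1.03. The nearly equal libraries, labelled wild-type 8.8 Gy replicate 2 and Parp1-/- 6 Gy replicate 1, stand on opposite sides of this comparison. Refits that each left out 1 array kept 0 calls here, with medians from -0.05 to 0.41. Each such refit kept at least 1 of these libraries, and the refit without both is not reported here for this comparison. The part of these libraries in the small differences was not tested. Under normexp background correction, 44.2% of all genes were called there, 2922 higher and 2843 lower in Parp1-/- mice, and among them 7 of the 9, with a median of 1.17. On slide 5, 1 array against 2, 5 of 9 differences were above 0 with a median of 0.16. From 6 to 8.8 Gy in wild type, 7 of 9 differences were above 0 with a median of 0.86, 0 were called by limma (0% of all genes) and 5 had an unadjusted p under 0.05. On slides 1 and 3, 1 array against 1 each, the medians were 1.76 and 0.22. Under normexp correction 3 of 9 were above 0 with a median of -0.10 and 1 was called (16.6% of all genes), whereas under centring on array medians all 9 were above 0 with a median of 1.32 and 7 were called (12.9%). Vwf was 1.27 ± 0.508 higher (adjusted p = 0.203) and Tubb1 1.24 ± 0.365 (adjusted p = 0.129), while Selp and Pf4 differed by -0.00 and -0.03.
By group means, Parp1-/- 6 Gy was highest for 8 of the 9 genes and wild-type 0 Gy lowest for 7, the exceptions being Vwf at the top and Selp and Tmem40 at the bottom. The full order wild-type 0 Gy, Parp1-/- 0 Gy, wild-type 6 Gy, wild-type 8.8 Gy, Parp1-/- 6 Gy held for 3 genes, Tubb1, Thbs1 and F13a1. Of the 27 neighbouring pairs in these orders that were compared, 1 was called, Tmem40 between wild-type 0 and 6 Gy. The other 9 pairs, Parp1-/- 0 Gy beside an irradiated wild-type group, were not compared.

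**Figure D3:**
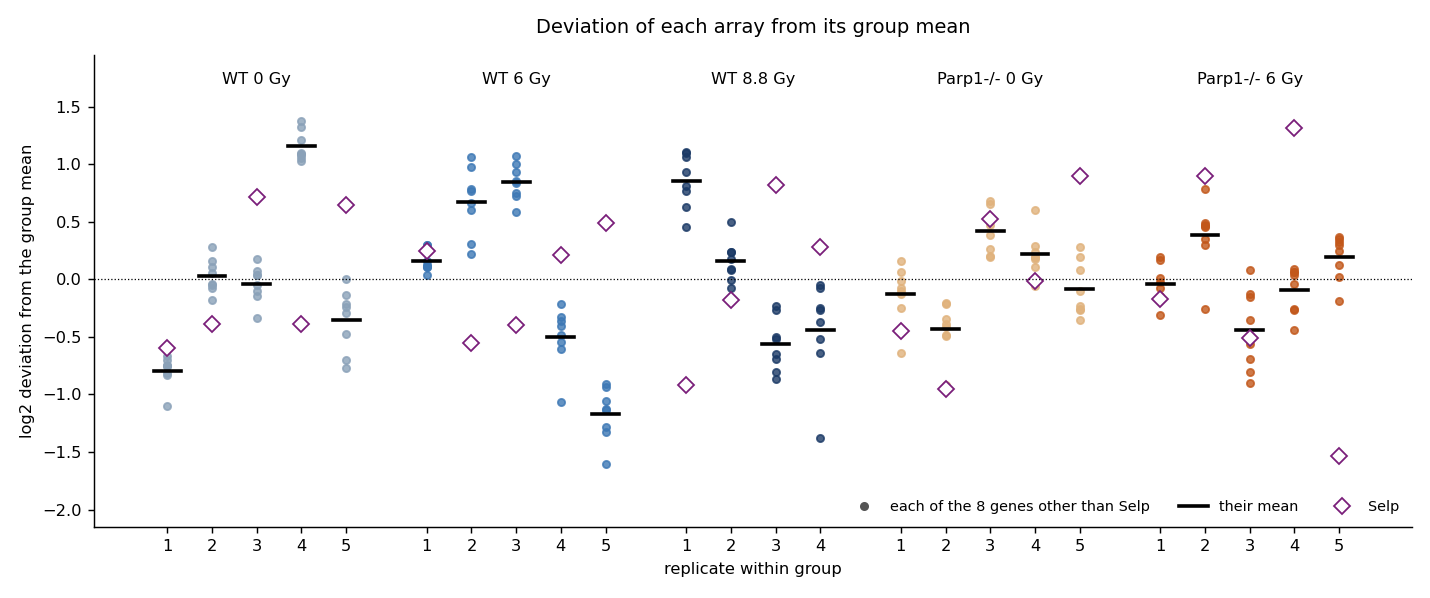
Deviation of each array from its group mean (log2) for the 8 genes other than Selp (points), their mean (bar) and Selp (diamond), by replicate within each of the 5 groups. The 8 genes shift together most on wild-type 0 Gy replicate 4 (up by a mean of 1.16) and wild-type 6 Gy replicate 5 (down by 1.17). Selp goes the other way on both, and with the 8 genes on some other arrays.

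Of the genes, 8 moved as a block from mouse to mouse within a group, and Selp stood apart. On wild-type 0 Gy replicate 4, all 8 lay above their group mean, by 1.03 to 1.38. On wild-type 6 Gy replicate 5, all 8 lay below it, by a mean of 1.17. Selp deviated by -0.39 on the former and by 0.49 on the latter, against the direction of the others on both. These are the arrays with the largest shifts. The 8 genes were split on some others, with 4 above their group mean on wild-type 0 Gy replicate 2. Selp also went with them on some, such as Parp1-/- 6 Gy replicate 2 (0.90, the mean of the 8 being 0.382).
Across the 24 arrays, the 28 pairs among the 8 genes had Pearson's r of 0.691 to 0.962, and after subtracting group means r was 0.72 to 0.94 with a median of 0.861. The 8 pairs with Selp had r of 0.133 to 0.418, and after group means -0.342 to -0.0524. The closest pair was Tubb1 and Thbs1 (r = 0.962). These values describe arrays that share a scaling per array, and genes on 1 array share its RNA.

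**Figure D4:**
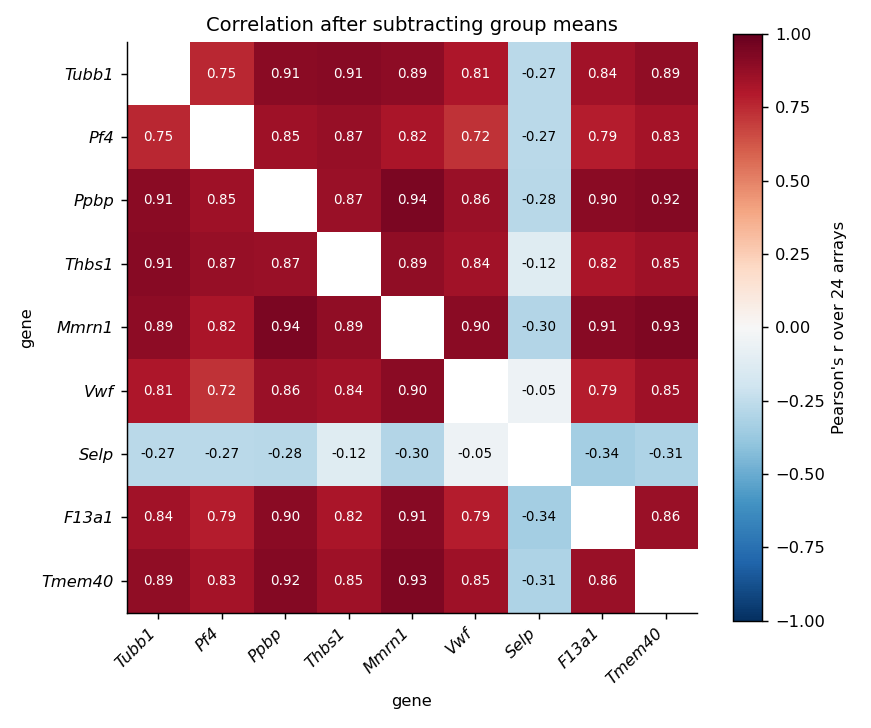
Pearson's r between the genes over 24 arrays after each group's mean was subtracted, on a colour scale from -1 to 1. Pairs among the 8 genes lie between 0.72 and 0.94, and the row of Selp lies between -0.342 and -0.0524.

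The same split appeared beside other genes. Among 7548 other genes detected on all arrays, those nearest to the mean of the 9 were Ssx2ip, Gp5, Gp6, Slc2a3 and Parvb (r = 0.971 to 0.977 over 24 arrays). Gp5 and Gp6 encode platelet receptors for von Willebrand factor and collagen, Slc2a3 a glucose transporter and Parvb a partner of integrin-linked kinase.
Nearest to Tubb1 was Gp5 (r = 0.977), to Tmem40 Pdgfa, the platelet-derived growth factor A chain (0.986), and to Vwf Mast2 (0.958) and Itgb3, the integrin beta-3 chain (0.955). Nearest to Ppbp was Lsm12 (0.977), to Thbs1 Gypc (0.968), to F13a1 Sh3bgrl2 (0.965) and to Pf4 Arhgap22 (0.936). Selp had other neighbours: Cd93, a receptor of endothelial and myeloid cells (0.925), Trim47 (0.886) and Cfp, the complement factor properdin (0.885).
The mean level of the 8 genes followed that of 18 tested platelet surface receptor genes with r = 0.985, and 0.971 after group means. Selp followed the 7 tested monocyte and macrophage genes with r = 0.845, and 0.837 after group means, while the 8 genes had r = -0.0312 and -0.411 with them. Only 3 of these 7 genes were well above background on all arrays. That monocyte list ran from 0.33 to 1.5 in wild-type 0 Gy arrays, 0.28 to 1.92 at 6 Gy and 0.90 to 1.66 at 8.8 Gy, and from 0.10 to 1.08 and 0.39 to 2.20 in Parp1-/- arrays. It held 1, 0 and 2 genes called higher in the 3 radiation comparisons, Fcgr1 in wild type at 6 Gy and Cd14 and Lyz2 in Parp1-/- mice, and its part in the Selp values was not tested.
Of 10 endothelial genes, 5 were tested and 2 were well above background on all arrays. Their mean level had r = 0.0948 with Selp and -0.344 with the 8 genes after group means, and 0, 1 (Plvap) and 0 of the genes were called higher in the radiation comparisons. It ran from -0.94 to 1.19 without irradiation, -0.46 to 1.22 at 6 Gy and 0.72 to 1.19 at 8.8 Gy in wild type, and from -1.19 to 0.88 and -0.34 to 1.13 in Parp1-/- arrays; its part in the values was not tested. The 5 tested of 7 hepatocyte genes had r = -0.721 with the 8 genes after group means, and had r = -0.321 before. Hepatocyte levels ran from -1.66 to 8.92 and from 0.04 to 8.31 at 0 and 6 Gy in wild type and from -0.77 to 8.14 at 8.8 Gy. In Parp1-/- arrays they ran from -0.98 to 8.36 and from -1.37 to 8.08, and their part was not tested.
Markers of other blood cells also moved with the 8 genes within groups. After group means, r with the 8 genes was 0.685 for 9 tested red-cell precursor genes of 10, 0.582 for 10 neutrophil genes of 10, 0.554 for the T cell list and -0.21 for the B cell list, and before that step it was -0.0952, 0.47, -0.515 and -0.724. Red-cell precursor levels ran from 1.03 to 2.72, 0.08 to 0.92 and 0.33 to 2.33 in wild type, in order of dose, and from 2.28 to 4.38 and 0.93 to 1.51 in Parp1-/- arrays. Neutrophil levels ran from 1.37 to 2.67, 1.84 to 2.83 and 1.62 to 2.91 in wild type and from 2.05 to 3.55 and 2.54 to 2.98 in Parp1-/- arrays. The part of these cells in the shared shifts was not tested.

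**Figure D5:**
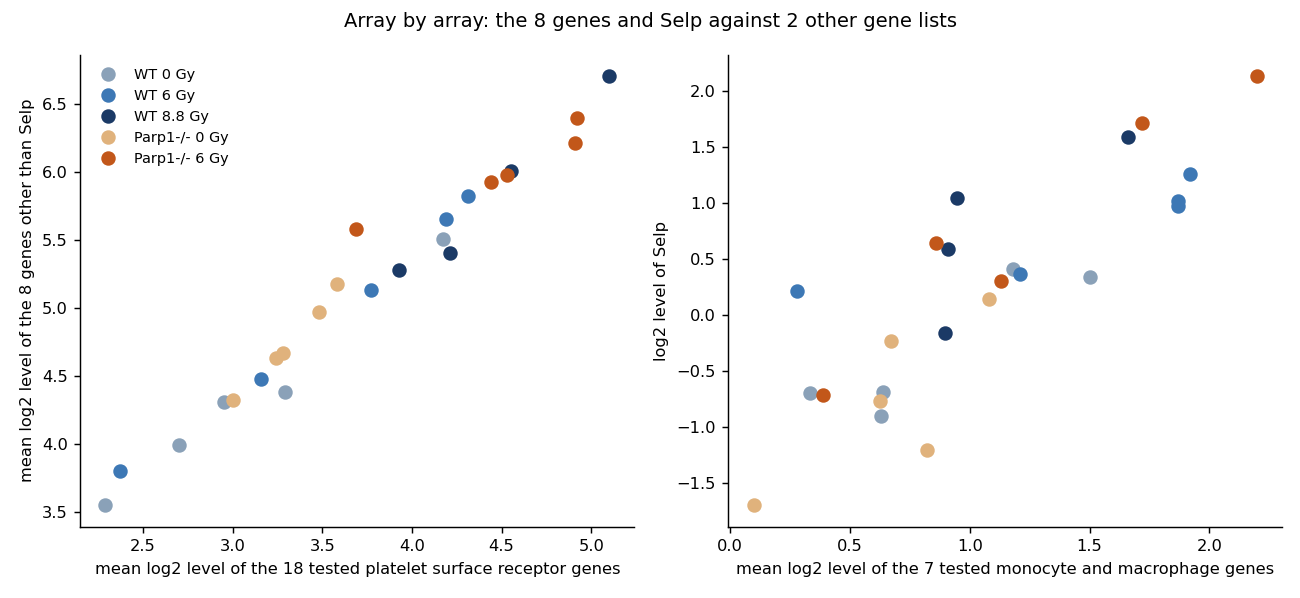
Left, mean log2 level of the 8 genes other than Selp against that of 18 platelet surface receptor genes, 1 point per array, coloured by group. Right, the log2 level of Selp against the mean of 7 monocyte and macrophage genes, with r = 0.985 on the left and 0.845 on the right.

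The wider platelet programme was counted from lists other than these 9, under the 75th percentile scaling alone. At most 4 genes per list and comparison are named, so a gene may also have been called where it is not named. Of all genes tested, 15.5%, 7.04% and 12.3% were called higher and 10.9%, 9.04% and 10.5% lower in the 3 radiation comparisons. Of 18 tested platelet surface receptors (20 listed), 3 were called higher at 6 Gy in wild type, 13 at 8.8 Gy and 11 in Parp1-/- mice, and 0 lower, with median differences of 0.54, 1.42 and 1.29. P2ry1, an ADP receptor, rose by 1.14 ± 0.368, 2.27 ± 0.391 and 2.47 ± 0.368 in these comparisons, and P2ry12, the other ADP receptor, by 1.82 ± 0.427 at 8.8 Gy and 1.78 ± 0.403 in Parp1-/- mice. Cd84, an adhesion receptor of the SLAM family, rose in all 3 by 0.73, 1.24 and 1.36, Cd226 by 1.07 at 6 Gy in wild type, and Ptgir, the prostacyclin receptor, by 1.71 in Parp1-/- mice. Itga2b, the integrin alpha-IIb chain of the fibrinogen receptor, was higher in Parp1-/- than in wild-type mice at 6 Gy by 2.15 ± 0.497 (adjusted p = 0.0454).
Of 31 other granule and secretion genes, 7, 10 and 11 were higher and 0 lower, with medians of 0.42, 0.58 and 0.79. They include Pdgfa, which rose by 1.87 ± 0.371 at 8.8 Gy and by 2.01 ± 0.35 in Parp1-/- mice, Pros1, the anticoagulant protein S (1.32 ± 0.264 and 1.45 ± 0.248), and Rab27b, a small GTPase of granule release (1.59 ± 0.387 and 1.75 ± 0.365). F5, which encodes the factor V carried by multimerin 1, was higher in Parp1-/- than in wild-type mice at 6 Gy by 0.83 ± 0.196 (adjusted p = 0.048). Gnaz, a G protein alpha subunit of platelets, rose by 1.45 ± 0.317 at 6 Gy in wild type and differed by -0.07 in Parp1-/- mice, a difference in response of -1.52 ± 0.448 (adjusted p = 0.0465). Serpine2 (1.59) and Stxbp2 (0.61) also rose at 6 Gy in wild type, Stx11 at 8.8 Gy (1.85), and Srgn, the granule proteoglycan serglycin, at 6 Gy in wild type (0.85) and in Parp1-/- mice (1.18).
Among 29 other cytoskeleton genes, 1, 8 and 11 were called higher and 1, 0 and 2 lower, with medians of 0.06, 0.58 and 0.55. Tuba8, an alpha tubulin, rose in all 3 comparisons (1.02 ± 0.36, 1.75 ± 0.381 and 2.18 ± 0.36), and Cttn, the actin-binding protein cortactin, rose by 1.57 ± 0.341 at 8.8 Gy and 1.88 ± 0.321 in Parp1-/- mice. Vcl, which encodes vinculin, rose by 1.52 and 1.38 in the latter comparisons, Parvb by 1.62 at 8.8 Gy and Lims1, a partner of integrin-linked kinase, by 1.51 in Parp1-/- mice. Tpm1, a tropomyosin, fell by 1.33 at 6 Gy in wild type.
Of 20 megakaryocyte regulators, 5, 6 and 9 were higher and 2, 0 and 2 lower. Nfe2, whose product binds the NF-E2 pattern seen upstream of Tmem40, rose by 0.94 ± 0.294, 1.45 ± 0.312 and 1.56 ± 0.294, and Gfi1b, a repressor needed for platelet formation, by 1.19 ± 0.361, 1.91 ± 0.383 and 2.09 ± 0.361. Meis1, a homeobox factor, rose by 2.54 ± 0.371 in Parp1-/- mice and by 1.76 ± 0.394 at 8.8 Gy, and its 6 Gy response was larger in Parp1-/- than in wild-type mice by 1.77 ± 0.525 (adjusted p = 0.0473). Tal1, a factor of both megakaryocytes and red-cell precursors, rose by 1.73 at 8.8 Gy, and Lmo2, its partner, fell by 1.38 at 6 Gy in wild type. Zfpm1, the GATA partner FOG-1, which red-cell precursors also use, fell by 1.69 at 6 Gy in wild type and by 1.80 in Parp1-/- mice. Red-cell precursor genes, of which 9 were tested, had 5, 3 and 6 called lower in the same comparisons, with medians of -2.53, -1.26 and -2.33. Slc4a1 (band 3) was lower in all 3 (from -3.03 to -1.89), and Epb4.2 at 8.8 Gy (-3.33) and in Parp1-/- mice (-4.0). Ank1, which encodes ankyrin 1, was lower at 6 Gy in wild type (-4.12) and higher in Parp1-/- than in wild-type mice at 6 Gy by 2.92 ± 0.596 (adjusted p = 0.0368).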

How the data were processed

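Spot intensities of 24 one-colour arrays (1 mouse each) were deposited as scanner files, made with Agilent Feature Extraction 11.5.1 per the file headers and the submitters' processing notes, with background subtracted and no normalisation between arrays. The authors' deposited table of log2 values served as an alternative. Over 10189 matched probes, each of its columns equalled log2 signal plus a constant per array (95th percentile of the deviation 6.07e-07, largest 3.16, 8350 cells empty), so scale and direction are known, while the choice of constants is not stated in any source at hand. Its column medians, in replicate order, were 7.94, 7.68, 7.73, 7.66, 7.80 (wild-type 0 Gy); 7.75, 7.86, 7.76, 7.65, 7.70 (6 Gy); 7.71, 7.85, 8.04, 7.97 (8.8 Gy); 8.09, 7.66, 8.01, 7.69, 7.63 (Parp1-/- 0 Gy); 7.83, 7.70, 8.06, 7.88, 7.86 (Parp1-/- 6 Gy).

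From the processed signals, control spots and outlier spots were dropped, the array's 75th percentile of 43020 spots was subtracted from log2, and spots of a probe were averaged. A gene took its brightest probe by mean, and entered the test if at least 4 arrays of some group had it well above background. Names came from RefSeq (GRCm38.p6) or the array file. Fits used limma 3.58.1 (R 4.3.3) on 5 group means (19 residual degrees of freedom), two-sided, with Benjamini-Hochberg adjustment over 13051 genes in each of 9 comparisons that share control arrays, and a gene was called at an adjusted p under 0.05. The script was tested on simulated data. The number of arrays limits the precision.

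The 9 genes and the related lists were chosen with earlier results of these data known. All 9 are reported. List genes were named if called in a radiation or genotype comparison, at most 4 per list and comparison, by adjusted p, and the nearest genes by Pearson's r over the 24 arrays (a few genes so chosen are not reported here). Alternatives were other scalings, filters, blocks and left-out arrays, and the use of arrays of scan day 3 alone was chosen after seeing the data.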

Additional observations from a re-analysis of the deposited data

Results flagged for a closer look

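Thbs1 on Parp1-/- 6 Gy replicate 3 was the lowest of its group at 5.05 (log2 level). Its gap to the nearest array was 0.713 of the group's range, above the 0.71 that Dixon's test allows for 5 samples. This was the only such value among 45 combinations of gene and group, and chance alone marks about 1 in 20.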

How the results depend on the processing

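Counts are of the 9 genes called by limma, with the share of all genes called in brackets. At 6 Gy in wild type (1 called), 0 were called with normexp (11.2%), median centring (46.8%), slide as a fixed (0%) or random block (22.6%), or scan day as a fixed block (0.115%), 2 with the 75th percentile of probes detected on all arrays (28.9%) or the authors' table (33.5%), and 3 with quantile normalization (26.5%). At 8.8 Gy (5 called, median 1.46), normexp left 0 (37.4%) with a median of 0.57, while slide (0%) and scan day (0.176%) as fixed blocks left 0 with medians of 1.90 and 1.43. In Parp1-/- mice after 6 Gy (5 called), slide (0.406%) and scan day (0.429%) as fixed blocks left 0, and normexp, median centring, the percentile of detected probes and the authors' table gave 8 each (21.3% to 32.2%). Parp1-/- against wild type at 6 Gy (0 called) gave 8 with median centring (29.2%) and 2 each with the percentile of detected probes (7.23%), the authors' table (5.13%) and slide as a random block (4.41%). At the LD50/30 doses (0 called) normexp gave 7 (44.2%). From 6 to 8.8 Gy (0 called), normexp (16.6%) and the authors' table (1.83%) gave 1 each and median centring 7 (12.9%). The difference in response (0 called) gave 6 with median centring against wild-type 6 Gy (30.2%) and 2 with normexp against wild-type 8.8 Gy (48.1%). The cause of these changes was not tested. Leaving out 1 array gave 0 to 4 calls at 6 Gy in wild type, 3 to 7 at 8.8 Gy, 4 to 7 in Parp1-/- mice, 0 to 1 between genotypes at 6 Gy, and 0 in the other comparisons.

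With the replicate number as a block, 1, 5 and 5 genes were called in the radiation comparisons (23.7%, 11.9% and 20.3% of all genes), the same counts as without it. Same-numbered arrays deviated with r of -0.77 to 0.749 over 46 pairs (median -0.0451), so the numbers do not pair the arrays. Without Parp1-/- 6 Gy replicate 1 and wild-type 8.8 Gy replicate 2, 1, 4 and 5 were called (24.5%, 8.83% and 18.4% of all genes). Without the former and wild-type 8.8 Gy replicate 4, 1, 5 and 5 were called (26.0%, 11.2% and 20.2%). The number of arrays and the signal over background limit the precision.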

Other observations

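Relatives of the 9 genes, which share their families but are mostly made by other cells, were counted in the same fit, as were the binding partners of von Willebrand factor. Of 13 other CXC chemokines, 4 were tested, and Cxcl16 (0.83 ± 0.266, limma adjusted p = 0.0268) and Cxcl14 (2.30 ± 0.846, adjusted p = 0.0479) were higher at 6 Gy in wild type. Cxcl16 was also higher in Parp1-/- mice after 6 Gy (0.99 ± 0.266, adjusted p = 0.00994). Of 4 other thrombospondins only Thbs3 was tested, a dim gene that was not well above background on all arrays. Its mean level was -3.31 in Parp1-/- 0 Gy arrays and -1.14 in Parp1-/- 6 Gy arrays. Thbs3 was higher in Parp1-/- mice after 6 Gy (2.17 ± 0.496, limma adjusted p = 0.00301). The same held for Emilin2, the single tested gene of 4 in the multimerin and emilin family (1.44 ± 0.319, adjusted p = 0.00248), and for Selplg, the P-selectin ligand, 1 of 2 tested among 3 selectin-related genes (0.81 ± 0.23, adjusted p = 0.0132).

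Of 6 tested beta tubulins other than Tubb1, Tubb4b was higher at 8.8 Gy (0.78 ± 0.263, adjusted p = 0.046) and in Parp1-/- mice (0.81 ± 0.248, adjusted p = 0.0215), and Tubb5, an abundant tubulin of dividing cells, was lower at 8.8 Gy (-0.88 ± 0.3, adjusted p = 0.0482). Of 5 tested von Willebrand factor partners, 2 were higher at 8.8 Gy and in Parp1-/- mice. These were Gp1ba (1.86 ± 0.465 and 1.58 ± 0.439) and Gp5 (1.83 ± 0.407 and 1.57 ± 0.383), both subunits of the platelet receptor complex for von Willebrand factor. Gp5 was also counted among the platelet surface receptors above. None of 3 tested transglutaminase and factor XIII relatives was called. The mean level of the 4 tested CXC chemokines, 1 of them well above background on all arrays, followed Selp (r = 0.883 over 24 arrays). It did not follow the 8 other genes (r = 0.0741).

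Among neutrophil genes, 10 tested, 3, 3 and 1 were higher in the radiation comparisons and 0, 0 and 2 lower. Of all genes tested, 15.5%, 7.04% and 12.3% were called higher and 10.9%, 9.04% and 10.5% lower. Ly6g rose by 1.35 ± 0.267 and 1.02 ± 0.283 and S100a9 by 1.24 and 1.05 in wild type at 6 and 8.8 Gy. S100a8 rose by 1.21 at 6 Gy in wild type, and Mmp9 by 1.39 at 8.8 Gy and 1.52 in Parp1-/- mice, where the granule genes Camp and Ltf were lower (-1.50 and -1.74). Of 4 heart muscle genes 2 were tested and 0 called, with levels from -3.52 on a Parp1-/- 0 Gy array to 7.08 on a Parp1-/- 6 Gy array.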
